A study of Mus musculus with 2 samples.

Results

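The ephrins and Eph receptors described here are 10 genes, Efna1, Efna5, Efnb1, Efnb2, Epha3, Epha4, Epha7, Ephb2, Ephb3 and Ephb4, of the 27998 genes counted in 2 single-cell RNA libraries from E9.5 mouse embryos. They were chosen by symbol, as ligands and receptors of one signalling family, and each was found once in the gene lists of both libraries. The libraries held live GFP-positive cells sorted from the pharyngeal apparatus and heart of Swiss Webster embryos. One library came from Mesp1Cre;Rosa26-GFPflox/+ embryos (Ctrl) and the other from Mesp1Cre;Rosa26-GFPflox/+;Tbx1flox/flox embryos (cKO). In both, Mesp1Cre acts in early mesoderm and switches on the GFP reporter in the descendants of those cells, so that cells outside that lineage should be missing from the sort. In the cKO embryos the same driver should also remove the loxP-flanked part of Tbx1, a T-box transcription factor gene of the pharyngeal mesoderm. The cells of a library were pooled from a pair of embryos and count as 1 sample, so a difference between them is a difference between libraries. Per the study's account of its embryos the cKO pair had a few more somites than the Ctrl pair. A difference therefore has no replicate check, carries no p-value, and genotype, library and embryonic stage cannot be told apart.

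Ephrins are ligands held in the cell membrane, and Eph receptors are the tyrosine kinases that bind them on a neighbouring cell. Ephrin-A proteins are anchored by a lipid and mainly bind EphA receptors, whereas ephrin-B proteins span the membrane and mainly bind EphB receptors, with EphA4 also binding ephrin-B. Both partners signal into their own cell, a process known for cell repulsion, tissue boundaries and the guidance of migrating cells. In the vasculature, ephrin-B2 marks arterial endothelium and its receptor EphB4 marks venous endothelium, and both are needed for the embryonic vessels to remodel.

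The files held 7418 Ctrl and 10281 cKO cells with 132017331 and 162874391 unique molecular identifiers (UMIs, the count of captured transcripts), and 6591 and 8969 cells were kept. The kept cells had medians of 16854 and 14192 UMIs. Cells were grouped by expression, with all ephrin and Eph genes kept out of the grouping, and 12 populations were named from marker genes and compared. Those of the cardiopharyngeal mesoderm or heart muscle were multilineage progenitors (MLP-like) and progenitors of branchiomeric muscle (BrM-like). Further ones were cells of somatic mesoderm or the anterior heart field (SoM/aSHF-like), posterior heart field cells (pSHF-like) and heart muscle cells (CM-like, for cardiomyocytes). Per the study, cardiomyocytes come from both the first heart field and the cardiopharyngeal mesoderm, and these sources were not told apart here. The other populations were endothelium-like, sinus venosus-like, septum transversum-like, foregut mesenchyme-like, somatic lateral plate-like, sclerotome-like and dermomyotome-like cells. The populations held between 119 and 1770 cells in a library. In a first clustering pass 98.1% of the sinus venosus-like and 96.0% of the somatic lateral plate-like cells had no name. The share was 48.1% of the MLP-like and 36.4% of the pSHF-like cells, against at most 8.40% of the other populations. The listed MLP marker Isl1 was enriched in neither MLP-like cluster, and Aplnr and Fgf8 were not enriched in the larger one (551 and 997 cells). SoM/aSHF-like cells carried 5 of 8 listed markers (Msx1, Msx2, Hand1, Hand2 and Bmp4), without enrichment of Nkx2-5, Fgf10 and Mef2c. The 10 endothelial markers summed to 3412 CPM (UMIs scaled to 1000000 UMIs per population and library) in endothelium-like cells of the Ctrl library and 3039 CPM in those of the cKO library, against 40.5 to 128 CPM in the other populations. Tbx1 was higher in the library labelled cKO in 5 of the 6 populations where it could be compared. It was 116 against 55.9 CPM in MLP-like and 15.3 against 1.88 CPM in sclerotome-like cells (log2 1.06 and 3.03), and the log2 ratio was 0.67 to 0.86 in SoM/aSHF-like, pSHF-like and somatic lateral plate-like cells. In BrM-like cells it was 106 against 128 CPM. A count of 3′ ends does not show whether the flanked part of the gene is present, so these values do not check the label. The 8 erythroid markers summed to between 151 and 198 CPM in every population of the cKO library, against at most 1.45 CPM in those of the Ctrl library other than endothelium (17.3 CPM). The 159 erythroid-like cells, all from the cKO library, held each of the 10 genes at 0.239 to 1.44 CPM, which serves as the floor for free RNA below. Haemoglobin took 353274 CPM in these cells, so their other genes read lower than in cells without it, and no such floor was measured for the Ctrl library. The 6 neural crest markers summed to between 6.29 and 12.8 CPM in the Ctrl library and between 3.81 and 7.96 CPM in the cKO library, lower there in each of the 12 populations. Their part in the differences below was not tested. The 6 neural markers summed to between 23.7 and 99.2 CPM, lower in the cKO library in BrM-like cells (55.9 against 27.7 CPM) and higher there in endothelium-like cells (61.0 against 77.6 CPM). The 6 macrophage markers summed to at most 1.17 CPM outside endothelium (72.7 and 68.5 CPM). The 7 epithelial markers ran from 5.43 CPM to 457 CPM, highest in SoM/aSHF-like cells of either library. Shh was at 0 in every population of the cKO library and in all but BrM-like and MLP-like cells of the Ctrl library. Their sum was higher in the cKO library in each population but sinus venosus-like cells (299.6 against 225 CPM), as in septum transversum-like (215 against 412 CPM) and foregut mesenchyme-like cells (168 against 302 CPM), and its part in the differences was not tested.

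Each gene had its own distribution over the populations. Efna1 and Ephb4 were highest in endothelium-like cells, Efnb1 and Ephb2 in sinus venosus-like cells, Epha4 in septum transversum-like cells and Epha3 in somatic lateral plate-like cells, in both libraries. The population of highest level differed between the libraries for Efna5, Efnb2, Epha7 and Ephb3. A gene was compared between the libraries in a population where it reached 10 CPM in one library and had 30 UMIs over both, which 85 of the 120 gene and population pairs did. A pair was called where the ratio was at least 1.5-fold and its 95% counting interval excluded no difference. By that rule 52 of the 85 pairs were lower in the library labelled cKO and 0 were higher, with a median log2 ratio of −0.68 and a range from −2.43 to −0.16. Over all genes and populations, 11.5% of 92736 pairs were called lower and 2.78% higher, and the median log2 ratio of a population lay between −0.12 and −0.07. Of the 85 pairs, 16 reached 10 CPM in the Ctrl library alone, which favours a lower cKO value, and 0 in the cKO library alone. These 16 include every pair of Epha3 (3) and Ephb3 (6). Among the 69 pairs at 10 CPM or more in both libraries, a limit set after the data had been seen, 38 were lower and 0 higher, beside 8.62% lower and 2.01% higher over all genes under that limit. No test across replicates was possible, and the intervals cover counting error alone.

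**Figure D1:**
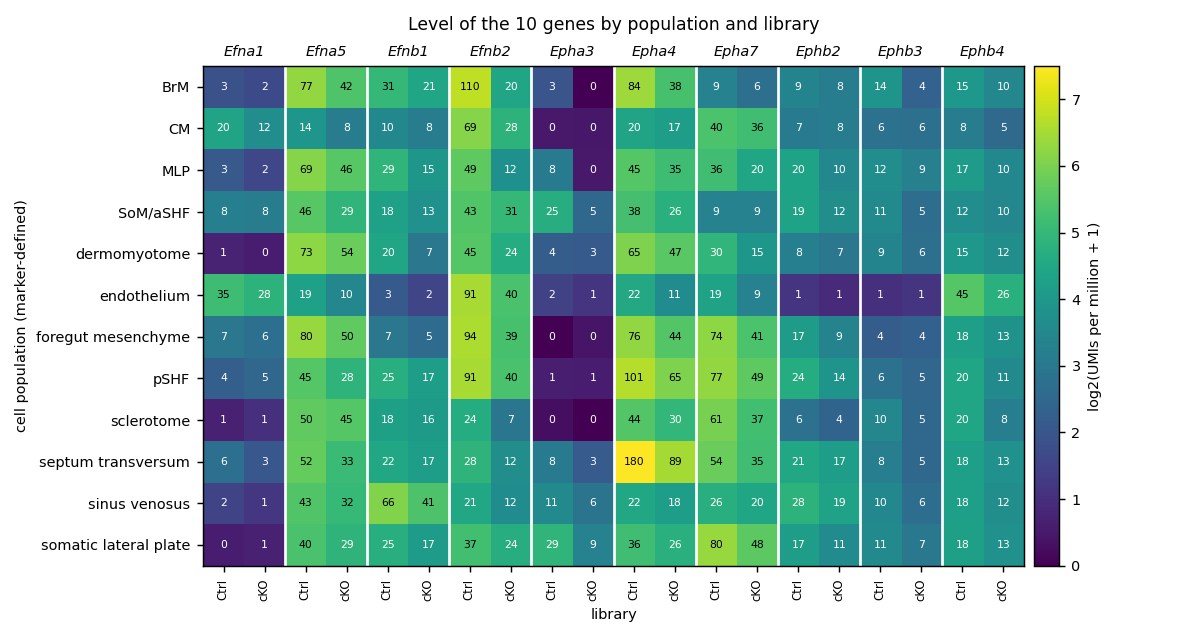
Level of each of the 10 genes (column pairs, Ctrl left and cKO right) in each of the 12 populations (rows). Colour gives log2(CPM + 1) and the printed number gives the CPM, from 180 for Epha4 in septum transversum-like cells of the Ctrl library down to 0. Levels may be compared along a column but not between genes, since each transcript is counted at its 3′ end alone.

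Efna1 encodes ephrin-A1, a ligand of EphA2 and other EphA receptors that is known from endothelium (GRCm38, chr3:89271730-89280951). It was 35.2 CPM (95% Poisson interval 30.8 to 40.0) in endothelium-like cells of the Ctrl library and 28.1 CPM (23.9 to 32.8) in those of the cKO library. CM-like cells followed with 19.7 and 11.8 CPM, and both steps in the order, from endothelium to CM and from CM to the next population, exceeded the counting error in both libraries. SoM/aSHF-like cells came next with 8.47 and 8.06 CPM, and the lowest population was at 0.483 CPM. Between the libraries, Efna1 was 1.67-fold lower in CM-like cells (log2 −0.74, −1.17 to −0.31). Among CM-like cells with Xist and no Y-linked UMI it was not called (−0.20, −0.79 to 0.41), and among those with Y-linked UMIs and no Xist it was −1.21. In endothelium-like cells the log2 ratio of −0.32 (−0.63 to −0.03) did not reach 1.5-fold. Within the CM-like class the level was highest in 1 of 3 clusters (72 and 88 cells), led by Myh7, Tdgf1 and Acta2. That cluster had 47.9 and 25.2 CPM, against 14.6 and 11.2 CPM in the largest CM-like cluster, and held 58 of the 94 Efna1 UMIs in the Ctrl library and 37 of 91 in the cKO library.

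Efna5 encodes ephrin-A5, a ligand of EphA3, EphA4 and EphA7 that repels growing axons (chr17:62602957-62881317). It was above 10 CPM in all 12 populations of the Ctrl library and was spread more evenly than Efna1, with the highest population at 1.66 times the median population. In the Ctrl library the levels were 79.6 CPM in foregut mesenchyme-like, 77.3 CPM in BrM-like and 73.1 CPM in dermomyotome-like cells, which did not differ beyond counting error from their neighbours in that order. CM-like cells (14.3 CPM) and endothelium-like cells (18.6 CPM) were lowest, so the populations rich in Efna1 were those poor in Efna5. In the cKO library dermomyotome-like cells led (54.2 CPM) and BrM-like cells, with 42.4 CPM, stood behind 4 others. Efna5 was called lower in 7 of 12 populations, with BrM-like (log2 −0.87, −1.08 to −0.65) and endothelium-like cells (−0.89, −1.37 to −0.42) at the head. Among all genes of its band of transcript length 14.6% of pairs were lower. After the centring on length and level given below, 1 of the 12 stayed called. The endothelium-like difference was not called among cells with Y-linked UMIs and no Xist (−0.51, −1.25 to 0.20) or in the cluster led by Klf2 and Hapln1 (−0.93, −1.98 to 0.04). In sclerotome-like cells 49.9 and 44.6 CPM did not differ beyond counting error (log2 −0.16, −0.48 to 0.15).

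Efnb1 encodes ephrin-B1, a transmembrane ligand of EphB receptors whose gene lies on the X chromosome (chrX:99136061-99149022) and which is known for boundaries in craniofacial tissue. Sinus venosus-like cells had 65.9 CPM (59.8 to 72.5) in the Ctrl library and 41.0 CPM (37.2 to 45.1) in the cKO library. The second population, BrM-like cells, had 30.6 and 20.6 CPM, and this step exceeded the counting error in both libraries. Endothelium-like cells were lowest, at 3.32 and 1.97 CPM, and the latter, of the cKO library, stood near the 1.20 CPM of its erythroid-like cells. Efnb1 was lower in the cKO library in 3 of 10 populations tested. These were dermomyotome-like cells with 20.4 against 6.77 CPM (log2 −1.59, −2.54 to −0.73), MLP-like cells with 28.8 against 14.7 CPM (−0.96, −1.15 to −0.77) and sinus venosus-like cells (−0.68, −0.88 to −0.49). The last call was lost among cells with Xist and no Y-linked UMI, with 49.6 against 42.7 CPM (−0.21, −0.54 to 0.12). Among cells with Y-linked UMIs and no Xist the values were 79.6 and 32.9 CPM (−1.27, −1.75 to −0.83), and these were the larger group in the Ctrl library (217 against 116 cells) and the smaller one in the cKO library (112 against 564). After each cell was thinned to 5000 UMIs, a UMI of Efnb1 was found in 26.1% of sinus venosus-like cells in the Ctrl library and 19.0% in the cKO library. Without thinning the shares were 57.6% and 38.9%.

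Efnb2 encodes ephrin-B2, the transmembrane ligand of EphB4 and of other EphB receptors (chr8:8617235-8661242). In the Ctrl library it was highest in BrM-like cells at 110 CPM (102 to 118), ahead of foregut mesenchyme-like (94.2 CPM), endothelium-like (91.0 CPM) and pSHF-like cells (90.6 CPM). The step below BrM-like cells exceeded counting error, and those between the next 3 populations did not. CM-like cells had 68.7 CPM, MLP-like cells 48.7 CPM and sinus venosus-like cells, the lowest, 21.2 CPM. In the cKO library BrM-like cells had 20.4 CPM and fell out of the leading group, which was pSHF-like (40.1 CPM), endothelium-like (39.9 CPM) and foregut mesenchyme-like cells (38.8 CPM). MLP-like cells moved from rank 6 to rank 9 of the 12 populations, and SoM/aSHF-like cells from rank 8 to rank 4. Neighbours within ranks 6 to 8 of the Ctrl library did not differ beyond counting error. Nor did those within ranks 4 to 8 and 9 to 11 of the cKO library.

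Efnb2 was lower in the library labelled cKO in 11 of the 12 populations, with a median log2 ratio of −1.21. BrM-like cells were 5.38-fold lower (log2 −2.43, −2.71 to −2.16) and MLP-like cells 3.90-fold lower (−1.97, −2.15 to −1.78), at 12.5 CPM. Sclerotome-like cells had 24.2 against 6.65 CPM (−1.86, −2.63 to −1.17). The log2 ratio was −1.32 in CM-like, −1.28 in foregut mesenchyme-like, −1.23 in septum transversum-like, −1.19 in endothelium-like and −1.18 in pSHF-like cells. It was smaller in dermomyotome-like (−0.89), sinus venosus-like (−0.88) and somatic lateral plate-like cells (−0.60). The sinus venosus-like value was −0.35 (−0.96 to 0.30), not called, among cells with Xist and no Y-linked UMI and −1.25 among cells with Y-linked UMIs and no Xist, and the somatic lateral plate-like value among the latter (−0.57) was not called. In SoM/aSHF-like cells the ratio (43.5 against 30.9 CPM, −0.49) did not reach 1.5-fold. The share of thinned BrM-like cells with an Efnb2 UMI was 35.8% (95% Clopper-Pearson interval 30.5 to 41.4) in the Ctrl library and 8.49% in the cKO library, or 79.2% and 24.1% without thinning. In thinned MLP-like cells the shares were 20.2% and 4.73%. No thinned erythroid-like cell had an Efnb2 UMI, which allows a share of up to 1.89%. The median depth was 25427 UMIs in erythroid-like cells and 21697 and 16282 UMIs in BrM-like cells of the Ctrl and cKO library.

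Efnb2 was uneven within populations too. In the CM-like cluster led by Myh7, Tdgf1 and Acta2 it was 199 CPM in the Ctrl library and 89.7 CPM in the cKO library, against 17.2 and 11.7 CPM in the largest CM-like cluster, a difference under 1.5-fold, and 37.7 and 15.6 CPM in the remaining one. The cluster with the highest level held 72 of the 264 Ctrl and 88 of the 470 cKO cells of the class, so the CM-like ratio also carries a difference in make-up. Both MLP-like clusters were lower in the cKO library, with 45.1 against 10.1 CPM and 51.4 against 14.6 CPM. An unnamed cluster led by Nkx2-3, Tlx1 and Edn1, which carried all 7 BrM markers but none among its 10 leading genes, had 92.7 against 17.5 CPM.

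The promoters of Efnb2 and Epha3, with the largest differences between the libraries, and of Ephb4, the receptor gene paired with Efnb2, are shown from RefSeq on GRCm38.p6, each from 250 bases before to 50 bases after the transcript start and read 5′ to 3′ on the gene's strand. Capitals mark matches on either strand to a GC box (GGGCGG) or a TATA box (TATAAA), and there is no match to the T-box core GGTGTGA in these 3.
Efnb2 chr8:8661193-8661492, minus strand: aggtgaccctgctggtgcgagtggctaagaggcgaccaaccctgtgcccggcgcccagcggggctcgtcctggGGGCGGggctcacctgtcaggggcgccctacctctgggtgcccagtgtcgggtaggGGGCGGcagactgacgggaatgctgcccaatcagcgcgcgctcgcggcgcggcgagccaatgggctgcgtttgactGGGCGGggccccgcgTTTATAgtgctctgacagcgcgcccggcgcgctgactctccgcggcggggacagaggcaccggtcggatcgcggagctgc
Epha3 chr16:63864126-63864425, minus strand: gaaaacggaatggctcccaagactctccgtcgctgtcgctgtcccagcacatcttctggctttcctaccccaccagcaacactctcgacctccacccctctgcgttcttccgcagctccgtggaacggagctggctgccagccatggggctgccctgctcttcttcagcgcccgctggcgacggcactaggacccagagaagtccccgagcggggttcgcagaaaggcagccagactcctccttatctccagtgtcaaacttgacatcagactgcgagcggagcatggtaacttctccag
Ephb4 chr5:137349859-137350158, plus strand: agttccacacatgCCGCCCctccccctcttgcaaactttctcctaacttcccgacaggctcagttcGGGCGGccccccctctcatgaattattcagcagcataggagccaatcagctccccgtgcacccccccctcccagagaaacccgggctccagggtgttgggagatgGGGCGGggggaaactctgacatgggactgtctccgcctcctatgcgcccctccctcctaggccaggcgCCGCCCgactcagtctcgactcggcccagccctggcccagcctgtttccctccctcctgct
The Efnb2 window holds 3 GC boxes, the one TATA box found among the 10 genes and 35 CpG dinucleotides, and 93.0% of 32851 promoters hold fewer. The Ephb4 window holds 4 GC boxes and the Epha3 window none. All 10 genes have GC-rich promoters, with 14 to 38 CpG dinucleotides against a median of 7 over all promoters. A GC box was found in 7 of the 10 genes and in 35.7% of all promoters, a TATA box in 1 and 13.6%, and the T-box core in 1 (Efna1) and 3.98%. A match is a description of the letters and not of a bound site.

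Epha3 encodes a receptor of ephrin-A5 (chr16:63543532-63864175). It was detected mainly in 2 populations of the Ctrl library, somatic lateral plate-like cells with 29.2 CPM (26.8 to 31.7) and SoM/aSHF-like cells with 24.7 CPM (21.2 to 28.7), which did not differ beyond counting error. Sinus venosus-like cells followed with 10.7 CPM and MLP-like cells with 7.77 CPM. Foregut mesenchyme-like cells had no UMI among 310 cells, which allows 0.539 CPM. In the cKO library the level was 9.06 CPM in somatic lateral plate-like cells (log2 −1.69, −1.95 to −1.43) and 4.84 CPM in SoM/aSHF-like cells (−2.35, −2.91 to −1.83), the latter 5.11-fold lower. Sinus venosus-like cells had 6.39 CPM (−0.74, −1.26 to −0.23), and among those with Xist and no Y-linked UMI the log2 ratio was −0.33 (−1.09 to 0.47). These 3 populations were compared because the Ctrl level reached 10 CPM, which no cKO level did, so their number says nothing further. Among populations left out, pSHF-like cells had 6 and 5 UMIs and CM-like cells 2 and 3 UMIs in the Ctrl and cKO library. MLP-like cells were below the limit for comparison, with 141 Epha3 UMIs in the Ctrl library and 12 in the cKO library (log2 −4.14, −5.13 to −3.29). BrM-like cells had 20 UMIs in the Ctrl library and none in the cKO library, where 0 allows 0.471 CPM. The cKO values in MLP- and BrM-like cells are at the floor of the erythroid-like cells (0.239 CPM, from 1 UMI, interval up to 1.33 CPM).

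Epha4 encodes a receptor for ephrins of both classes, known from hindbrain and limb patterning (chr1:77367182-77515107). It was above 10 CPM in all 12 populations of both libraries. Septum transversum-like cells had 180 CPM (167 to 193) in the Ctrl library and 89.2 CPM (82.2 to 96.6) in the cKO library. The second population, pSHF-like cells, had 101 and 65.4 CPM, and both steps exceeded the counting error in both libraries. BrM-like cells came next in the Ctrl library (84.2 CPM) and stood behind 4 others in the cKO library (38.5 CPM). In the Ctrl library Efna5 and Epha4, a ligand gene and its receptor gene, were both high in BrM-like and foregut mesenchyme-like and low in CM-like cells. The match was partial, since the leading Epha4 populations, septum transversum-like and pSHF-like cells, ranked 5 and 8 for Efna5 (51.5 and 44.7 CPM). Epha4 was called lower in 5 of 12 populations, with BrM-like (log2 −1.13, −1.35 to −0.91) and septum transversum-like cells (−1.01, −1.17 to −0.86) at the head. Both stayed called after the centring on transcript length and level given below, which left 2 of the 12. Of all pairs in the same length band 24.7% were lower before centring. In CM-like cells 19.96 and 17.3 CPM did not differ beyond counting error (−0.21, −0.60 to 0.19).

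Epha7 encodes another receptor of ephrin-A5 (chr4:28813066-28967503). In the Ctrl library somatic lateral plate-like (80.1 CPM), pSHF-like (77.4 CPM) and foregut mesenchyme-like cells (74.4 CPM) led without differing beyond counting error, and sclerotome-like cells had 60.8 CPM. SoM/aSHF-like (9.04 CPM) and BrM-like cells (8.997 CPM) were lowest, so BrM-like cells combined a high Epha4 with a low Epha7 level relative to the other populations. The cKO library had 48.8 CPM in pSHF-like and 48.0 CPM in somatic lateral plate-like cells. Epha7 was lower in 8 of 10 populations tested, with endothelium-like (log2 −1.08, −1.58 to −0.59) and dermomyotome-like cells (−1.03, −1.68 to −0.42) at the head. In its band of transcript length 24.7% of all pairs were lower, and the centring on length and level given below left 2 of the 10 called. The endothelium-like difference was not called among cells with Xist and no Y-linked UMI (−0.41, −1.10 to 0.27), and was −1.67 (−2.52 to −0.89) among cells with Y-linked UMIs and no Xist. CM-like cells, with 40.3 and 35.5 CPM, did not differ beyond counting error (−0.18, −0.46 to 0.09). An unnamed cluster led by Cpa1, Maf and Pid1 (104 and 133 cells) had 200.2 CPM in the Ctrl library and 107 CPM in the cKO library, above every named population.

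Ephb2 and Ephb3 encode receptors of the ephrin-B ligands. Ephb2 (chr4:136647536-136836326) was highest in sinus venosus-like cells with 27.8 and 19.1 CPM, which did not differ beyond counting error from the second population in either library. Its levels ran from there to 1.21 CPM (Ctrl) and 0.894 CPM (cKO) in endothelium-like cells. The cKO value was at the floor of the erythroid-like cells (0.718 CPM), a floor not measured for the Ctrl library. The ligand gene Efnb1 had the same highest and lowest populations. Ephb2 was lower in 5 of 7 populations tested, with MLP-like cells (19.6 against 10.4 CPM, log2 −0.91, −1.14 to −0.68) at the head. Of all pairs in its band of transcript length 30% were lower, and 0 of the 7 stayed called after the centring on length and level given below.

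Ephb3 (chr16:21204620-21223309) was 13.6 CPM in BrM-like and 11.8 CPM in MLP-like cells of the Ctrl library, and no step among its 5 leading populations exceeded the counting error. It reached 10 CPM in 6 populations of the Ctrl library and in none of the cKO library, so the pairs compared were chosen by the Ctrl level, and 5 of the 6 were lower. Among those left out, the log2 ratio was 0.15 (−0.77 to 1.08) in foregut mesenchyme-like and −0.06 (−0.76 to 0.67) in CM-like cells. BrM-like cells had 4.09 CPM in the cKO library and were 3.34-fold lower (log2 −1.74, −2.43 to −1.10). SoM/aSHF-like cells had 11.0 against 5.37 CPM (−1.04, −1.62 to −0.47), and MLP-like cells at 8.55 CPM did not reach 1.5-fold (−0.47, −0.74 to −0.20). BrM-like cells had the largest log2 decrease among tested populations for Efnb2 and Epha4. Thinned shares of cells with an Ephb3 UMI did not pass 5.75% in any population, so shares at this depth separate few populations for this gene.

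Ephb4 encodes the receptor of ephrin-B2 that marks veins (chr5:137350109-137374522). Endothelium-like cells had 45.1 CPM (40.1 to 50.5) in the Ctrl library and 26.3 CPM (22.2 to 30.9) in the cKO library, beyond counting error above every other population. The remaining 11 populations lay between 7.98 and 20.4 CPM in the Ctrl library, so the gene was widespread outside endothelium. Ephb4 was lower in 4 of 11 populations tested: sclerotome-like (log2 −1.27, −1.97 to −0.62), pSHF-like (−0.93, −1.28 to −0.58), endothelium-like (−0.78, −1.07 to −0.49) and MLP-like cells (−0.69, −0.93 to −0.45). Across all genes of its band of transcript length 14.6% of pairs were lower. The sclerotome-like call alone stayed after the centring on length and level given below, and the MLP-like one was lost among cells with Xist and no Y-linked UMI (−0.55). In SoM/aSHF-like cells 11.7 and 10.1 CPM did not differ beyond counting error.

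Endothelium-like cells came from 2 clusters. One (229 Ctrl and 240 cKO cells) was led by Cldn5 and Emcn and the other (141 and 148 cells) by Klf2 and Hapln1. A list of 8 endocardial genes summed to 2525 CPM in the Klf2 and Hapln1 cluster of the Ctrl library and 735 CPM in the Cldn5 and Emcn cluster, whereas 8 venous genes summed to 257 and 725 CPM. Both clusters carried Efnb2 and Ephb4 together. Efnb2 was 118 CPM (Ctrl) and 59.3 CPM (cKO) in the Klf2 and Hapln1 cluster and 74.7 and 29.7 CPM in the Cldn5 and Emcn cluster, lower in the cKO library in both (log2 −0.99 and −1.33). Ephb4 was 47.6 and 24.8 CPM in the Cldn5 and Emcn cluster (−0.94, −1.32 to −0.58), and 40.9 and 29.1 CPM in the other (−0.49, −0.99 to −0.01), which did not reach 1.5-fold. The clusters stood farthest apart in 2 EphA receptor genes. Epha4 was 56.6 CPM and Epha7 46.6 CPM in the Klf2 and Hapln1 cluster of the Ctrl library, against 1.45 and 2.18 CPM in the Cldn5 and Emcn cluster. In the cKO library the Klf2 and Hapln1 cluster had 29.1 CPM of Epha4 and 21.3 CPM of Epha7, again above the 2.18 and 2.45 CPM of the other. Efna1 differed little between the clusters, with 34.8 and 35.7 CPM in the Ctrl library and 28.1 CPM in each cluster of the cKO library.

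**Figure D2:**
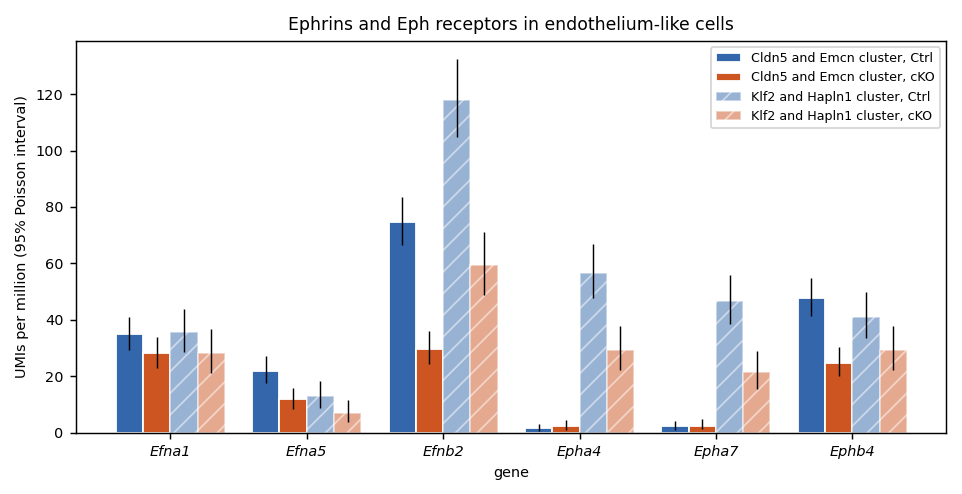
Level in CPM (bars, from 0) of 6 genes in the 2 endothelium-like clusters, solid for the cluster led by Cldn5 and Emcn and hatched for that led by Klf2 and Hapln1, in each library. Error bars are 95% Poisson intervals of the summed counts. Epha4 and Epha7 are at 56.6 and 46.6 CPM in the hatched Ctrl bars and at 1.45 and 2.18 in the solid ones, while Efnb2 and Ephb4 stand in both clusters.

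Single endothelium-like cells were then sorted by whether they held a UMI of the arterial ligand gene, of the venous receptor gene, or of both, after thinning to 5000 UMIs. In the Ctrl library 6.85% of 365 cells (4.48 to 9.95) held both, 29.0% Efnb2 alone, 14.5% Ephb4 alone and 49.6% neither. In the cKO library 2.93% of 376 cells (1.47 to 5.17) held both, 13.6% Efnb2 alone, 10.6% Ephb4 alone and 72.9% neither. The classes depend on depth, since without thinning 31.4% and 13.4% of the cells held both. Ephb4 was found in 19.1% (12.7 to 26.9) of Ctrl cells with Efnb2 and in 22.6% (17.5 to 28.6) of those without. The corresponding shares in the cKO library were 17.7% and 12.7%. The clusters ran in opposite directions in the Ctrl library. In the Klf2 and Hapln1 cluster Ephb4 was found in 11.7% (4.82 to 22.6) of 60 cells with Efnb2 and 31.6% (21.6 to 43.1) of 79 cells without, and in the Cldn5 and Emcn cluster in 25.4% (15.8 to 37.1) of 71 and 18.1% (12.4 to 25.0) of 155. The intervals of each pair overlap. The Klf2 and Hapln1 cluster of the cKO library gave 17.9% for both kinds of cell, and the Ctrl shares of that cluster without thinning were 47.1% and 45.9%. In the Cldn5 and Emcn cluster, Ctrl cells with an Efnb2 UMI held 5.70 UMIs of a list of 12 arterial genes per thinned cell, against 2.60 in cells without. In the cKO library these values were 3.35 and 1.74. The 8 venous genes ran the other way in that cluster, with 3.07 against 3.94 UMIs in the Ctrl library and 2.85 against 3.37 in the cKO library. In the Klf2 and Hapln1 cluster of the Ctrl library the venous sum was 1.52 UMIs in cells with Efnb2 and 0.987 in those without, and it was 0.857 and 0.957 in the cKO library. In the same cluster the arterial list gave 2.97 and 2.90 UMIs per cell in the Ctrl library and 2.75 and 2.14 in the cKO library, for cells with and without Efnb2. Without thinning these were 11.7 and 8.14 in the Ctrl library and 6.40 and 4.78 in the cKO library. The arterial list itself summed to 637 CPM in the Cldn5 and Emcn cluster of the Ctrl library and 364 CPM in that of the cKO library. There the venous list summed to 725 and 610 CPM and the endocardial list to 735 and 451 CPM. In the Klf2 and Hapln1 cluster the sums were 610 and 429 CPM (arterial), 257 and 205 CPM (venous) and 2525 and 1897 CPM (endocardial). Each list was thus lower in the cKO library in both clusters, and the part of transcript length in these sums was not tested.

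The differences between the libraries are drawn together in the plot of log2 ratios by gene. Of the tested pairs, 4 of 6 were lower in BrM-like, 5 of 8 in MLP-like, 6 of 7 in pSHF-like, 5 of 6 in endothelium-like and 5 of 6 in foregut mesenchyme-like cells, where 14.1%, 12.4%, 11.5%, 11.8% and 12.8% of all tested genes were called lower. The smallest share was 4 of 9 in sinus venosus-like cells, beside 9.2% of all genes there. In the other populations 3 of 6 pairs were lower in CM-like (10.2% of all genes) and dermomyotome-like cells (11.5%), 4 of 8 in SoM/aSHF-like (11.6%), 4 of 7 in sclerotome-like and septum transversum-like (11.9% in each), and 5 of 9 in somatic lateral plate-like cells (8.85%). These counts take in the 16 pairs that reached 10 CPM in the Ctrl library alone, of which 14 were lower. Such a limit favours a lower cKO value. Among them were Efnb2, Ephb3 and Ephb4 in sclerotome-like cells, and Epha3 and Ephb3 in SoM/aSHF-like and sinus venosus-like cells.

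**Figure D3:**
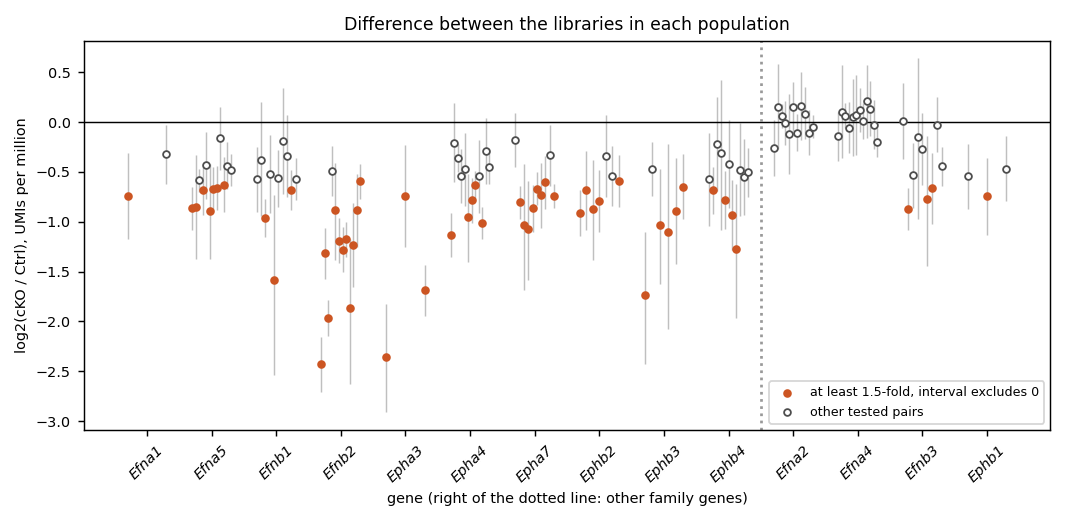
log2 ratio of CPM, cKO over Ctrl (vertical axis), for each gene (horizontal axis), with 1 point for each population tested and its 95% counting interval as a line. Filled points were called; all 52 filled points left of the dotted line lie below 0, and Efnb2 and Epha3 reach −2.43 and −2.35. The 4 other family genes with tested pairs stand right of the line.

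A property of the libraries moved with these differences. Over all tested genes the log2 ratio fell with the length of the longest coding transcript, from a median of 0.12 below 1500 bases to 0.04 from 1500 to 3000, −0.23 from 3000 to 5000, −0.36 from 5000 to 7000 and −0.43 above. The share called lower rose over the same bands from 2.28% to 3.92%, 14.6%, 24.7% and 30%. The 10 genes have transcripts of 1632 (Efna1) to 10902 bases (Ephb2), and 9 of them exceed 3000 bases. Among their pairs 30 of 51 were lower from 3000 to 5000 bases, 16 of 25 from 5000 to 7000 and 5 of 7 above. The part that length plays in the ratios was not tested, since it cannot be told apart from the library.

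Each ratio was therefore also centred on the median log2 ratio of genes of like transcript length and level in the same population, an alternative chosen after the data had been seen. Of the 85 pairs, 24 then stayed at least 1.5-fold lower and 0 were higher, beside 4.02% lower and 3.68% higher over all 85399 pairs with a length. The median of the 85 centred log2 ratios was −0.34. Efnb2 held 10 of the 24, with a median centred log2 ratio of −0.995, and was lower in all populations but SoM/aSHF-like (−0.26) and somatic lateral plate-like cells (−0.34). It was −2.24 (−2.52 to −1.97) in BrM-like and −1.71 (−1.89 to −1.53) in MLP-like cells. Epha3 was lower in SoM/aSHF-like (−1.94, −2.50 to −1.42) and somatic lateral plate-like cells (−1.28), and Ephb3 in BrM-like (−1.41), SoM/aSHF-like (−0.75) and sinus venosus-like cells (−0.63). Epha4 was lower in BrM-like (−0.88) and septum transversum-like cells (−0.76), and Epha7 in dermomyotome-like (−0.66) and endothelium-like cells (−0.63). Efnb1 was lower in 2 of 10 populations, Efna1 in 1 of 2, Efna5 in 1 of 12 and Ephb4 in 1 of 11, that of sclerotome-like cells (−0.92). Ephb2, the gene with the longest transcript, was lower in 0 of 7 (median −0.17). With the same centring over the 69 pairs at 10 CPM or more in both libraries, 18 were lower and 0 higher, beside 2.86% lower and 2.47% higher over all genes, and 9 of the 18 were of Efnb2. Epha3 and Ephb3 had no pair under that limit. Most called differences of Efna5, Epha4, Epha7, Ephb2 and Ephb4 thus lay within 1.5-fold of genes of like length and level in their population or had an interval that reached them, and most of those of Efnb2 did not. The centring also takes out the median ratio of the population. Centring on that median alone left 7.48% of all pairs lower, and the part of length by itself was not tested.

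**Figure D4:**
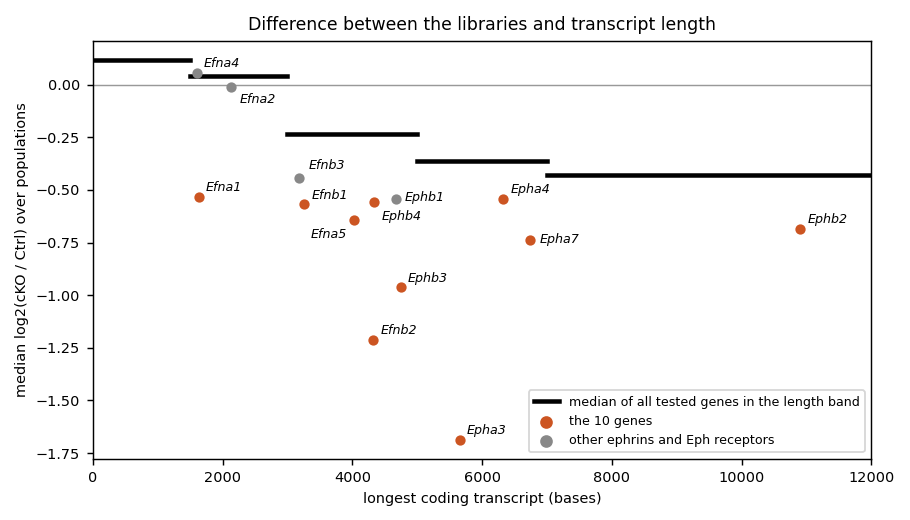
Median log2 ratio, cKO over Ctrl, over the populations tested (vertical axis) against the length of the longest coding transcript in bases (horizontal axis), for the 10 genes (orange) and 4 other ephrins and Eph receptors (grey). Black bars give the median of all tested genes in each length band, from 0.12 to −0.43; Efnb2, Ephb3 and Epha3 lie farthest below their bars, Ephb3 and Epha3 over populations that reached 10 CPM in the Ctrl library alone.

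Both libraries held cells of male and female embryos, so each was split into cells with Xist and no Y-linked UMI and cells with a Y-linked UMI and no Xist. This gives 2 values per library in 10 populations, and each pair of values comes from different embryos of the same library preparation. The split does not replace replicates of the genotype. Efnb2 in BrM-like cells was 116 and 102 CPM in the Xist and Y-linked cells of the Ctrl library and 21.1 and 20.4 CPM in those of the cKO library. In MLP-like cells the values were 48.2 and 50.3 CPM against 12.1 and 12.6 CPM, and in endothelium-like cells 88.5 and 89.6 CPM against 44.98 and 35.7 CPM. The values of one library lay close together there, and the libraries did not overlap. In CM-like cells Efnb2 was 46.6 and 85.4 CPM in the Ctrl library and 34.0 and 20.7 CPM in the cKO library, a wider spread within a library that still left the libraries apart, with the Xist cells alone not called (log2 −0.46). Epha3 in SoM/aSHF-like cells was 27.4 and 22.4 CPM against 5.65 and 4.32 CPM. In somatic lateral plate-like cells it was 27.5 and 33.0 CPM against 10.3 and 7.56 CPM. Of 72 tested pairs of the 10 genes, 67 had both cKO values below both Ctrl values, 0 had both above and 5 overlapped (3 of Epha4, 1 of Epha7 and 1 of Ephb2). The 67 include pairs that reached 10 CPM in the Ctrl library alone, which favours a lower cKO value. They are all pairs of Epha3 (3) and Ephb3 (5), Efna5 and Efnb1 in CM-like, Epha7 in endothelium-like and Ephb2 in foregut mesenchyme-like cells. Of 45 pairs called lower in these populations, 31 were called again among the Xist cells, 40 among the Y-linked cells and 26 in both, where 11.6% and 13% of all pairs were called lower in the Xist and the Y-linked cells. The calls lost among the Xist cells were those of Efna1, Efna5 and Efnb2 in CM-like, Efnb1, Efnb2, Epha3 and Ephb3 in sinus venosus-like, Epha4 and Epha7 in endothelium-like, Epha7 in septum transversum-like, Ephb2 in SoM/aSHF-like, Ephb2 and Ephb3 in somatic lateral plate-like and Ephb4 in MLP-like cells. Those lost among the Y-linked cells were Efna5 in endothelium-like, Efnb2 in somatic lateral plate-like, Epha4 and Epha7 in pSHF-like and Epha7 in MLP-like cells. Over all genes the cKO values lay below in 42.4% of 77586 pairs and above in 23.1%.

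**Figure D5:**
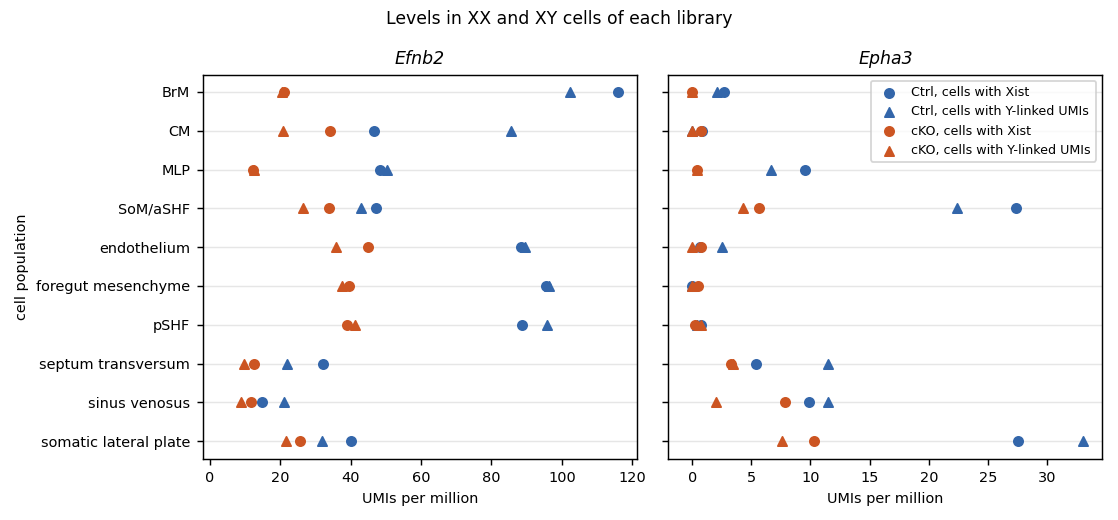
Level in CPM (horizontal axis) of Efnb2 (left) and Epha3 (right) in 10 populations (rows), for cells with Xist (circles) and cells with Y-linked UMIs (triangles) of the Ctrl (blue) and cKO (orange) library. In all 10 rows both orange Efnb2 points lie left of both blue ones, by most in BrM-like cells (21.1 and 20.4 against 116 and 102).

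The family has further members, and of 12 other ephrin and Eph genes 8 (Efna3, Epha1, Epha10, Epha2, Epha5, Epha6, Epha8 and Ephb6) never reached the limit for comparison. The others gave 35 tested pairs, of which 4 (11.4%) were lower and 0 higher, with a median log2 ratio of −0.05, so the share lower was near the 11.5% of all pairs. The 4 were Efnb3 in MLP-like (−0.87), sclerotome-like (−0.77) and septum transversum-like cells (−0.67) and Ephb1 in septum transversum-like cells (−0.74). Efna2 and Efna4, with transcripts of 2131 and 1599 bases, gave 0 calls in 11 and 12 populations, and after centring 0 of the 35 pairs was called. Of 44 genes listed as signalling partners of ephrins and Eph receptors, 349 pairs were tested, 78 (22.3%, against 11.5% of all pairs) were lower and 1 was higher (median −0.33). The higher one was Chn2, a Rac regulator, in BrM-like cells (15.1 against 4.50 CPM). Called lower in the most populations were the kinase gene Abl2 and the adaptor gene Crk (10 of 12 each), the adaptor gene Nck2 and Adam10, a protease that cleaves ephrins (8 of 12 each), Itsn1, which acts on Cdc42 downstream of EphB receptors (6 of 12), and Tiam1, an activator of Rac (6 of 11). After the same centring on length and level, 21 of the 349 pairs (6.02%, against 4.02% of all pairs) were lower and 4 higher, with a median of −0.06. These genes thus lay near other genes of like length and level.

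The likeness of the genes' patterns was measured by Pearson's r of log2(CPM + 5) across 24 points, the 12 populations in both libraries. The points share their libraries and their depth, so r also takes in the difference between the libraries and is given as a description. Among the 10 genes Efnb1 was most like Ephb2 and Ephb3 (r = 0.72 with each), with −0.15 for the other EphB receptor, Ephb4, and Efna5 was most like Epha4 (0.66). Efna1 and Efna5 ran against each other (−0.66), and Efnb2 and Ephb4 gave 0.45. Over 7510 genes, those most like Efna1 were Mmp15 (0.96), Afap1l1 (0.90) and Dusp3 (0.89), and those most like Efnb2 were Mrpl34 (0.92), Ide (0.91) and Zfhx2 (0.86). Ephb4 was most like Ppp1r11, Ptpn12 and Ptk2 (0.92 each), Efna5 most like Gpatch8 (0.94), Vezf1 (0.92) and Cbx1 (0.91), and Efnb1 most like Tenm3 (0.86), Rbm5 and Ing4 (0.83 each). Among the receptors, Epha3 was most like Efemp1 (0.83) and Prrt4 (0.82), and Epha4 most like Mrgbp (0.94) and Adgrl2 (0.84). Epha7 was most like Dach2 (0.80), Aldh1a2 (0.77) and Zadh2 (0.75), Ephb2 most like Pdzrn3 (0.91), Zc3h14 and Tln2 (0.90 each), and Ephb3 most like Ankrd12 (0.83), Hs6st2 and Rab11fip2 (0.80 each).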

How the data were processed

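Single-cell RNA was counted in 2 libraries, 1 per genotype, grouped by the genotype in the labels. The deposited values are raw UMI counts per gene and cell, made by the authors with Cell Ranger 3.1.0 on mm10 per the labels, without normalization. No column of another sample was present.

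Cells were kept with at least 1000 genes and at most 10% mitochondrial UMIs. The automatic Scrublet threshold (scanpy 1.11.5) called 0 Ctrl cells, so the highest-scoring cells were removed at 0.8% per 1000 cells, 416 and 804 cells. Of the barcodes, 15 occurred in both libraries, 12 of them kept in both. Seurat 5.3.0 (R 4.3.3) clustered the integrated libraries with 2000 variable genes, 30 dimensions and resolution 1. All family and partner genes, and in a second pass 1667 genes with a 2-fold or larger difference between the libraries, were left out. Clusters took a name given at least 3 listed markers, more than 50% of the list, and among the 10 leading genes an own marker and no more markers of another class than own ones. The 5 clusters without a name held 1333 and 1702 cells.

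UMIs were summed per library and population, with exact Poisson intervals, conditional intervals of ratios and Clopper-Pearson intervals of shares at 95% (3 counts for a count of 0). Shares used cells thinned to 5000 UMIs. Population totals ranged from 2066498 to 27256717 UMIs. Median depth per population was lower in the cKO library throughout. Transcript lengths came from GENCODE vM1 (92.1% of tested pairs) and positions from RefSeq on GRCm38.p6. All 10 genes are named; other family and partner genes are named where called in the most populations. The code was tested on simulated data. The members and lists were chosen with earlier results of these data known. Alternatives are given in the closing section. Signalling partner Afdn was not analysed here, and 2 of the genes most like a member are not reported here.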

Additional observations from a re-analysis of the deposited data

How the results depend on the processing

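No paired analysis was possible because each genotype has 1 library, so the labels give no second pair and no replicate could be left out. The 52 gene and population pairs lower in the library labelled cKO became 19 at a 2-fold limit (2.14% of all pairs) and 24 after centring on genes of like transcript length and level, the latter chosen after the data had been seen, and 18 with that centring and at least 10 CPM in both libraries. Under 12 other settings, which kept 10 to 12 of the populations, the count lay between 36 (cells with Xist and no Y-linked UMI, with 11.6% of all pairs lower) and 58 (no filter on low counts, with 8.93% of all pairs lower), and 0 pairs were higher under any setting. Of 729 alternative values of the 52 pairs, 579 stayed called, 150 kept their direction without the call and 0 reversed. The number of genes with the same highest population, 10 by definition, was 5 with the first clustering pass and 7 to 10 otherwise. Without thinning, 31.4% and 13.4% of Ctrl and cKO endothelium-like cells held both Efnb2 and Ephb4. The cause of these changes was not tested, beyond the stricter limit and the larger number of UMIs per cell that the 2-fold and the unthinned setting have by construction.

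With 1 library per genotype, every difference between the libraries is also one of preparation, depth (medians of 16854 and 14192 UMIs), embryos and their stage. Populations were rebuilt from markers and are not those of the study. Counts are of 3′ ends, without isoforms, and RNA levels do not give the amount of protein on the cell surface. Pairs under 30 UMIs were left out of the calls, and a share of thinned cells under 1.89% cannot be told from the erythroid-like background of Efnb2.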

Other observations

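Clusters that took no name held further ephrin and Eph values, given here as values. A cluster led by Wnt4, Cxcl13 and Cldn11 (615 Ctrl and 621 cKO cells), nearest to the pSHF markers, had 95.8 CPM of Efnb2 in the Ctrl library and 56.2 CPM in the cKO library. Its Epha4 levels were 100.3 and 64.9 CPM and its Epha7 levels 75.8 and 52.8 CPM. Within the pSHF-like class, the 2 clusters differed in both genes. One had 125 and 84.8 CPM of Epha4 and 111 and 55.1 CPM of Efnb2, and the other 63.0 and 40.3 CPM of Epha4 and 58.3 and 20.6 CPM of Efnb2. The MLP-like clusters differed in Epha3 in the Ctrl library, with 2.68 CPM (1.66 to 4.09) in one and 11.6 CPM (9.66 to 13.9) in the other, against 0.232 and 0.627 CPM in the cKO library.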
